A study of Homo sapiens with 12 samples.

Results

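The 35 coagulation and complement genes described here were chosen by name, with earlier results of these data known. They are clotting factors, fibrinogen chains, plasma protease inhibitors and complement proteins, and every one was found once in the deposited table of 61806 genes. Bulk RNA was sequenced from the human embryonic stem cell line H1 in the course of cardiac differentiation, which began with WNT activation by CHIR-99021 toward mesendoderm. NP-IWP2 cells stayed in the same wells and received IWP2, an inhibitor of WNT secretion. P-DF cells were lifted and reseeded on Day 2 and then kept in DF medium, where they had no IWP2. P-IWP2 cells were reseeded on the same day and received IWP2. All groups had the wild-type genotype and shared the WNT activation before Day 2. Each treatment had 2 libraries on Day 12 and 2 on Day 16, which gave 12 libraries of 1 cell line. The labels do not say whether libraries of a group came from separate differentiations, so p-values measure the spread between these libraries, which may be technical. A static group without IWP2 was not analysed here, and P-DF therefore differs from NP-IWP2 both in passaging and in IWP2. The study describes the ROCK inhibitor Y27632, which limits death of dissociated cells, as a routine addition in its later experiments. The labels of these libraries do not name it, and whether static cells also received it is not given in the sources used here.

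Most clotting factors are made by hepatocytes and secreted into plasma. In the clotting cascade, factors VII, X and V lead to activation of prothrombin, and thrombin then turns fibrinogen into fibrin. Plasmin dissolves the clot, and serpins such as antithrombin hold these proteases back. Complement is a second plasma cascade, which runs through C1, C3 and the terminal components. Several of its early components and inhibitors are also made by fibroblasts, endothelial cells and macrophages. The members were therefore sorted by known sources into 20 hepatocyte-restricted genes, 6 mainly hepatic genes with other known sources, and 9 genes with stromal, endothelial or myeloid sources as well as liver.

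To show what the promoters of the leading members look like, the 160 bases before the RefSeq start of transcription are given below for 6 of them (GRCh38.p14). Capitals mark exact matches on either strand to GTTAAT, a partial site of the hepatic factor HNF1, to CAAAGT, a core of the HNF4 site, or to TTGCNNAA, a C/EBP motif. The fibrinogen chains FGA (chr4:154590743-154590902, minus strand), FGB (chr4:154562820-154562979, plus strand) and FGG (chr4:154612657-154612816, minus strand) are shown because their levels moved together. SERPINA1 is shown at the second of its RefSeq starts (chr14:94388603-94388762, minus strand), and the window of its first start, which held none of the motifs, is not shown. VTN (chr17:28370308-28370467, minus strand) is shown as a member with an intermediate pattern, and PROS1 (chr3:93973897-93974056, minus strand) as the member that went the other way.
FGA: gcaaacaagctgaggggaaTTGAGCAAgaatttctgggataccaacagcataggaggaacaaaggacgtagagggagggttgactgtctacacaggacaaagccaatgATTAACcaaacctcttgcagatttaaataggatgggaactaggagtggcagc
FGB: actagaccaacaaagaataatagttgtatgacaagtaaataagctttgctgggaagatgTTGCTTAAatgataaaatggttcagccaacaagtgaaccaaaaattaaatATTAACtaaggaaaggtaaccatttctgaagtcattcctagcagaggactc
FGG: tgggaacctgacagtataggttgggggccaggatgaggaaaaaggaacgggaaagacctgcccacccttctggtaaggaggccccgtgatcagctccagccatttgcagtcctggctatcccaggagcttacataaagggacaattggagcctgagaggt
SERPINA1: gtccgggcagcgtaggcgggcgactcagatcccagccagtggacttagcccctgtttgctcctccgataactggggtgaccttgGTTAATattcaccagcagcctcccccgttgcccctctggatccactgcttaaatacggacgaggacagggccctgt
VTN: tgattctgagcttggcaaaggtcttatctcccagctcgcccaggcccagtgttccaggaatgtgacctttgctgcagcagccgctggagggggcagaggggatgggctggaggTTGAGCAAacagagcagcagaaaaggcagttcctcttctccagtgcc
PROS1: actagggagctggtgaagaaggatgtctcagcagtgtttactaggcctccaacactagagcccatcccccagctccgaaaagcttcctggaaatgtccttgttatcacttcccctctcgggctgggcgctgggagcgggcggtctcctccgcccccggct

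A promoter window from 250 bases before to 50 bases after the start was found for 29 of the 35 members. GTTAAT was in a window of 9 of the 18 hepatocyte-restricted genes with a window, 2 of 6 mainly hepatic genes and 2 of 5 genes of the third class, against 8.27% of the 27305 genes of the RefSeq table. CAAAGT was found in 5, 2 and 0 genes of the classes against 14.3% of all genes. TTGCNNAA was found in 6, 2 and 1 genes against 12.7%. Windows of 1 gene were counted together. FGA and FGB held both GTTAAT and TTGCNNAA, FGG held no match, and neither did PROS1. A match is a description of these letters and not a measured binding site.

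Counts per library summed to between 14885589 and 19176239, and 3 counts corresponded to 0.156 to 0.202 CPM (counts scaled to the library total). The Day 12 library labelled P-IWP2 replicate 5 stood apart from its partner. The chi-square of the 2 libraries' counts per degree of freedom was 137 in that group and 3.79 to 30.2 in the 5 other groups. In that library the 10 stromal markers summed to 768 FPKM and the 7 epicardial markers to 140 FPKM, against 28.5 to 48.5 and 0.36 to 0.86 FPKM in the 7 other passaged libraries. FPKM is the count scaled to exon length and library total, so levels of different genes can be set side by side. Results are given with all 12 libraries and without this one. The fit without it has replicate 6 as the only library of P-IWP2 on Day 12. Calls in comparisons with that group then rest on the spread within the other groups. Leaving out its partner, replicate 6, also raised most counts of called members, and those counts are given among the limits.

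In NP-IWP2 cells the 12 hepatic markers, which include AFP, ALB, TTR and APOA1, summed to 656 and 459 FPKM on Day 12 and 963 and 790 FPKM on Day 16. In the 8 passaged libraries they summed to 6.07 to 20.1 FPKM, and APOA1 alone made up 5.66 to 19.98 FPKM of it. HNF4A, a hepatic transcription factor, had no read in 7 of the 8 passaged libraries and 5 reads in replicate 5 of Day 12. The stromal markers also differed between static and passaged libraries, with 804 to 1410 FPKM in the 4 NP-IWP2 libraries. Of the 10 endothelial markers, KDR made up most of the sum except in replicate 5 of Day 12, where it was at 11.2 FPKM. It was at 39.2 to 177 FPKM in NP-IWP2 and 9.89 to 233 FPKM in passaged libraries. The 9 others, which include CDH5, PECAM1 and TEK, summed to 32.9 and 37.3 FPKM in NP-IWP2 on Day 12 and 15 and 14.7 FPKM on Day 16. They summed to 17 FPKM in replicate 5 of Day 12 and 1.51 to 3.54 FPKM in the 7 other passaged libraries. The 6 macrophage markers summed to 0.03 to 0.56 FPKM in any library. In bulk RNA, fewer cells of a type cannot be told apart from less RNA per cell, and the part of these marker lists in the results below was not tested.

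The classes separated the libraries differently, as the plot of summed levels shows. The summed FPKM of the hepatocyte-restricted members was 53.9 and 40.2 in NP-IWP2 on Day 12 and 86.4 and 84.5 on Day 16, and 0.28 to 1.35 in the 8 passaged libraries. The groups did not overlap. The mainly hepatic members summed to 62.3 and 48.3 FPKM on Day 12 and 87.8 and 70.9 FPKM on Day 16 in NP-IWP2. They summed to 1.76 to 3.51 FPKM in 7 passaged libraries and to 25.8 FPKM in replicate 5 of Day 12. The third class summed to 56.9 and 53.6 FPKM in NP-IWP2 and 49.1 to 63.1 FPKM in passaged libraries on Day 12, which overlapped. On Day 16 it summed to 41 and 39.9 FPKM in NP-IWP2 and 57.2 to 83.2 FPKM in passaged libraries, without overlap. These sums came mostly from PROS1 and A2M. The sum does not stand for each member. On Day 16, 6 of the 8 tested members of this class had a fitted log2 fold change below 0 in each passaged treatment.

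**Figure D1:**
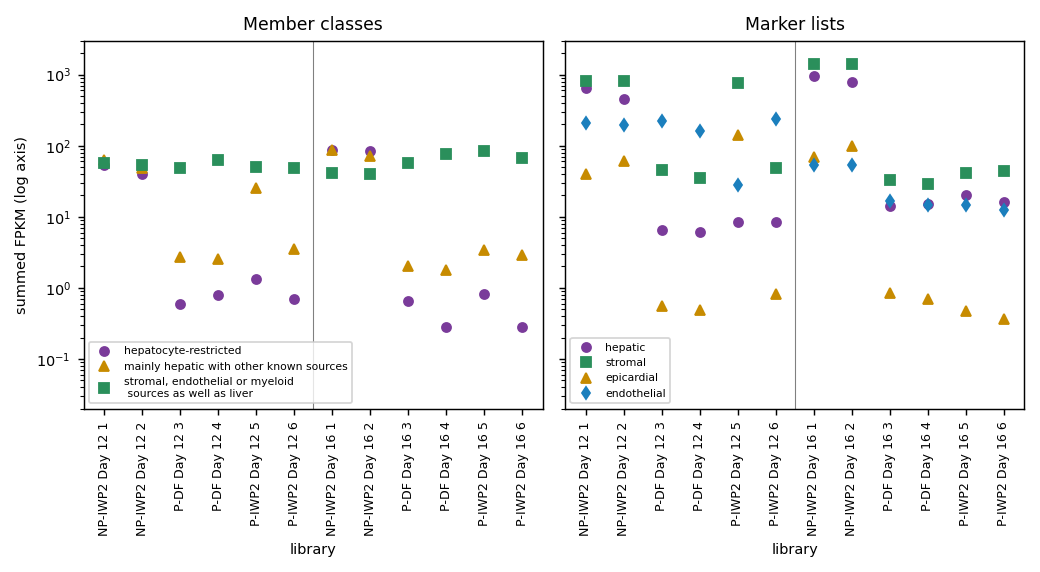
Summed FPKM (log axis) of the 3 member classes (left) and of 4 marker lists (right) in each of the 12 libraries, one point per library. Hepatocyte-restricted members lie at 40.2 or above in the 4 NP-IWP2 libraries and at 1.35 or below in the 8 passaged ones, and P-IWP2 Day 12 replicate 5 has 768 FPKM of stromal markers. The endothelial sum is mostly KDR, except in P-IWP2 Day 12 replicate 5.

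**Figure D2:**
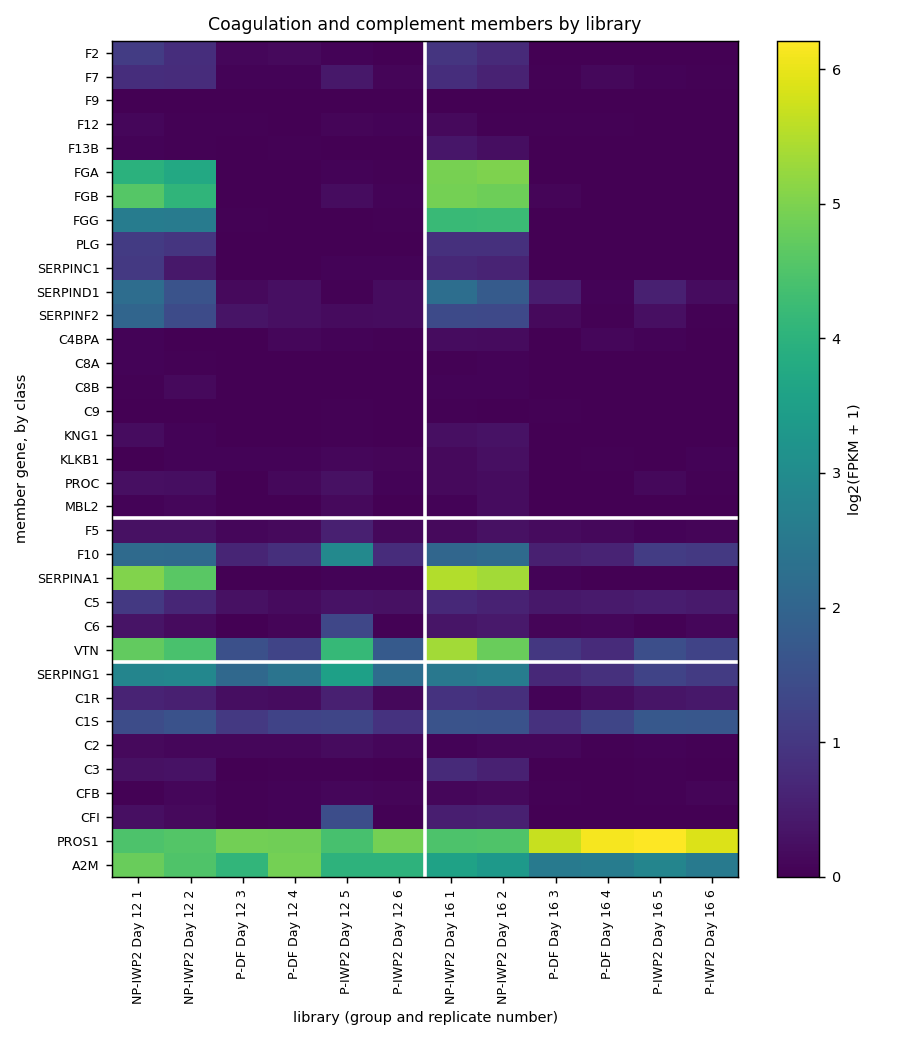
log2(FPKM + 1) of the 35 members (rows, white lines between the classes) in the 12 libraries (columns, white line between the days). FGA, FGB, FGG and SERPINA1 are bright in the 4 NP-IWP2 columns and dark in the 8 passaged ones, and PROS1 is brightest in the passaged columns of Day 16.

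Setting the passaged against the static libraries of a day asks which members differ between them. P-IWP2 shares IWP2 with NP-IWP2, while P-DF differs from NP-IWP2 in IWP2 as well as in passaging. By edgeR's quasi-likelihood test with Benjamini-Hochberg adjustment over all genes, 24 of the 35 members passed the filter on low counts, namely 10 of 20 hepatocyte-restricted, 6 of 6 mainly hepatic and 8 of 9 genes of the third class. Both passaged treatments were compared with the same NP-IWP2 libraries. On Day 16, 1 member rose and 16 fell in P-DF, while 15.3% of all tested genes were called (5.39% higher and 9.86% lower). In P-IWP2 on Day 16, 1 member rose and 14 fell, with 17.1% of all genes called (7.15% higher and 9.95% lower). On Day 12, 13 members fell and 0 rose in P-DF, with 4.01% of all genes called (0.697% higher and 3.32% lower). In P-IWP2 on Day 12, 10 members fell and 0 rose, with 1.66% of all genes called (0.328% higher and 1.33% lower). Without a test, 28 of the 34 members with a read on Day 16 had all 4 passaged libraries below both static ones, and 8 of the 28 had not passed the filter. PROS1 had them above. Of all 35987 genes with a read on Day 16, 19.0% lay below and 14.7% above in this way. On Day 16 the median log2 fold change of the 24 members was -3.99 for P-DF and -3.75 for P-IWP2, and that of all tested genes was -0.0154 and -0.0303. With members without a read placed at the limit of 3 counts over the group, the medians were -3.27 and -3.35. Of the 24 tested members, 23 would have passed the filter on the static libraries alone and 10 on the passaged ones alone. Many thus entered through the libraries in which they were high, and these calls and medians are a description.

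Without replicate 5 of Day 12, 26 members passed the filter. On Day 12, 1 member then rose and 18 fell in P-DF, with 21.9% of all genes called (8.25% higher and 13.6% lower). In P-IWP2 on Day 12, 0 rose and 16 fell, with 15.0% of all genes called (5.45% higher and 9.57% lower). On Day 16, 1 rose and 20 fell in P-DF, with 32.4% of all genes called (14.4% higher and 18.1% lower). In P-IWP2 on Day 16, 1 rose and 22 fell, with 34.8% of all genes called (16.3% higher and 18.5% lower). Other libraries lowered the counts. The share of all genes called is not given for those fits, so a change in the members cannot be told from one over the whole table. On Day 16, 11 members were called in P-DF without NP-IWP2 replicate 1 and 9 without P-DF replicate 4, and 8 in P-IWP2 without P-IWP2 replicate 6. On Day 12, leaving out either NP-IWP2 library of either day, or either P-DF library of that day, left 5 to 8 calls in P-DF, and leaving out any of these NP-IWP2 libraries left 4 to 6 in P-IWP2.

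A member that passed the filter through the static libraries alone could hardly be found higher in passaged cells, and the counts by class are a description. On the passaged libraries alone, 1 of the 10 tested hepatocyte-restricted members, 4 of the 6 mainly hepatic ones and 5 of the 8 of the third class would have passed. All 10 tested hepatocyte-restricted members fell on Day 16 in both treatments, 9 fell on Day 12 in P-DF and 7 on Day 12 in P-IWP2. Of the 6 mainly hepatic members, 3 fell in P-DF on either day, and 2 fell in P-IWP2 on either day. Of the 8 tested members of the third class, 1 fell on Day 12 in each treatment, while on Day 16 3 fell and 1 rose in P-DF and 2 fell and 1 rose in P-IWP2. The difference between classes was not tested.

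**Figure D3:**
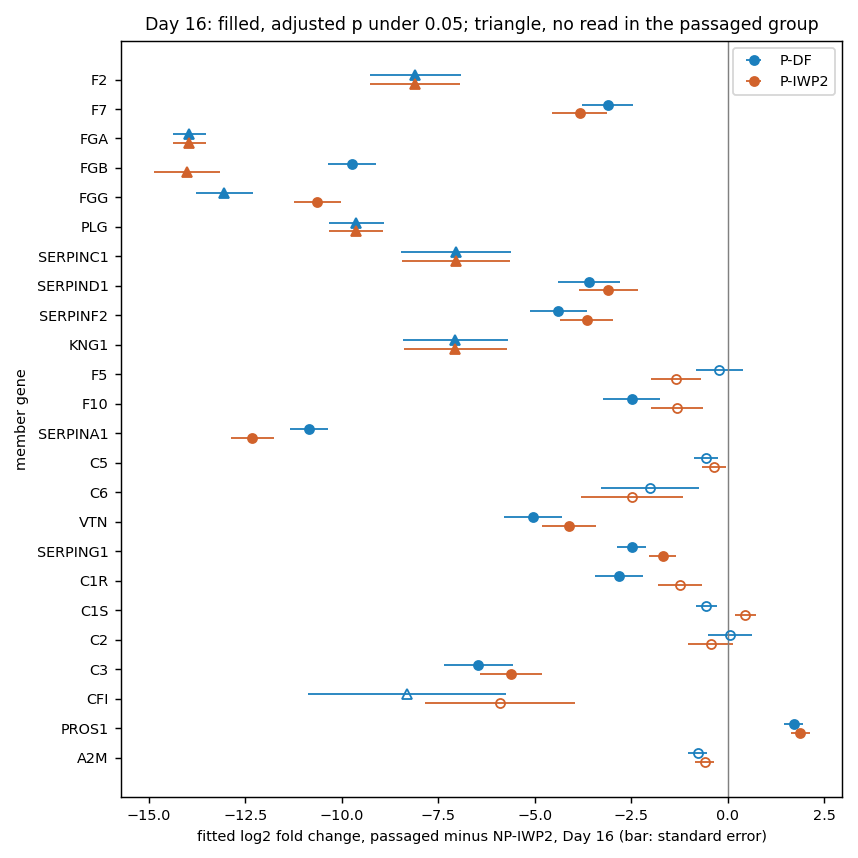
Fitted log2 fold change of the 24 tested members on Day 16 in P-DF (blue) and P-IWP2 (orange) against NP-IWP2, with standard errors as bars. Filled symbols passed an adjusted p of 0.05, triangles mark members without a read in the passaged group, whose fitted size depends on the prior count, and PROS1 is the member to the right of 0 that passed in both.

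The fibrinogen chains, which thrombin cleaves to form fibrin, were among the members with the highest level in static cells. FGA (chromosome 4, 154583128 to 154590745 on hg38) was at 14.55 and 12.41 FPKM in NP-IWP2 on Day 12 and 29.79 and 31.11 FPKM on Day 16. It had no read in the 4 P-DF libraries and the 2 P-IWP2 libraries of Day 16, and was at 0.05 and 0.02 FPKM in P-IWP2 on Day 12. On Day 16 it was at least 1154-fold lower in P-DF and at least 1221-fold lower in P-IWP2, against 3 counts over the group. The adjusted p by edgeR was 4.1e-05 and 4.3e-05.

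FGB was at 22.82 and 15.81 FPKM in NP-IWP2 on Day 12 and 29.35 and 27.65 FPKM on Day 16, and at 0 to 0.16 FPKM in passaged libraries. FGG was at 5.12 and 4.99 FPKM on Day 12 and 17.62 and 17.96 FPKM on Day 16 in NP-IWP2, and at 0 to 0.03 FPKM in passaged libraries. All 3 chains fell in all 4 comparisons, with no overlap between groups and adjusted p from 4.1e-05 to 0.001 by edgeR. The 3 genes share chromosome 4, and the FGG gene overlaps an unnamed pseudogene on its own strand.

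SERPINA1 encodes alpha-1 antitrypsin, the main inhibitor of neutrophil elastase, and had the highest mean FPKM of the members in NP-IWP2 on Day 16. It was at 31.98 and 23.63 FPKM in NP-IWP2 on Day 12 and 43.99 and 39.61 FPKM on Day 16, and at 0 to 0.05 FPKM in the 8 passaged libraries. Reads over the group on Day 16 were 7235 in NP-IWP2, against 3 for P-DF and 1 for P-IWP2. It fell in all 4 comparisons, with an adjusted p by edgeR of 1.6e-05 in P-DF and 1.3e-05 in P-IWP2 on Day 16.

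Prothrombin and the factors that activate it were lower in level than fibrinogen. F2, which encodes prothrombin, was at 1.15 and 0.77 FPKM in NP-IWP2 on Day 12 and 0.95 and 0.66 FPKM on Day 16. It was at 0.08 and 0.12 FPKM in P-DF and 0.05 and 0.00 FPKM in P-IWP2 on Day 12, and had no read in the 4 passaged libraries of Day 16. F2 fell in all 4 comparisons (adjusted p by edgeR 0.00592 and 0.00535 on Day 16). Its Day 12 calls were less firm, and held in 7 of 18 alternative fits in P-DF and 11 of 18 in P-IWP2.

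F7, the factor that starts the cascade with tissue factor, was at 0.75 and 0.72 FPKM in NP-IWP2 on Day 12 and 0.75 and 0.52 FPKM on Day 16. It was at 0.03 to 0.09 FPKM in 7 passaged libraries and 0.32 FPKM in replicate 5 of Day 12. It fell in P-DF on both days (log2 fold change -3.97 ± 0.71 and -3.12 ± 0.66, SE) and in P-IWP2 on Day 16 (-3.84 ± 0.71), and in P-IWP2 on Day 12 it passed the test without replicate 5 alone.

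F10, which cleaves prothrombin, was at 3.43 and 3.32 FPKM on Day 12 and 3.16 and 3.41 FPKM on Day 16 in NP-IWP2. It was at 0.45 to 1.14 FPKM in 7 passaged libraries, while replicate 5 of Day 12 had 6.56 FPKM, above every other library. F10 fell in P-DF on Day 16 (-2.50 ± 0.73, adjusted p = 0.0481 by edgeR), a call that held in 7 of 20 alternative fits. Without replicate 5 it fell in all 4 comparisons. F5, the cofactor of factor X, was at 0.11 to 0.22 FPKM in NP-IWP2 and 0.05 to 0.14 FPKM in 7 passaged libraries, and at 0.46 FPKM in replicate 5. It passed no test of passaged against static cells with 12 libraries, and fell in P-IWP2 on Day 16 without replicate 5 (-1.34 ± 0.47, adjusted p = 0.0424 by edgeR).

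The members of the contact and fibrin-crosslinking steps had few reads. F12, which starts the contact pathway, had 3 to 13 reads in NP-IWP2 and 0 to 5 in passaged libraries. F13B, the carrier subunit of factor XIII, had 16 and 8 reads in NP-IWP2 on Day 16, 0 reads in the 4 passaged libraries of that day, and 0 to 2 reads in any library of Day 12. Both passed the filter without replicate 5 alone. F13B then fell in both treatments on Day 16 (adjusted p 0.00663 and 0.0057 by edgeR) and F12 in P-IWP2 on Day 16 (0.0498). F12 overlaps GRK6 on the opposite strand.

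The clot-dissolving system was represented by PLG, which encodes plasminogen. It was at 1.13 and 0.95 FPKM in NP-IWP2 on Day 12 and 0.83 and 0.83 FPKM on Day 16, and had no read in any of the 8 passaged libraries. Against 3 counts over the group it was at least 72.2-fold lower in P-DF and 81.2-fold lower in P-IWP2 on Day 12, and at least 57.6-fold and 60.9-fold lower on Day 16. PLG fell in all 4 comparisons, with adjusted p by edgeR from 0.00171 to 0.00547.

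SERPINF2, which inhibits plasmin, was at 1.59 to 3.10 FPKM in NP-IWP2 and 0.02 to 0.26 FPKM in passaged libraries. SERPIND1, heparin cofactor II, was at 2.03 to 3.75 FPKM in NP-IWP2 and 0.03 to 0.45 FPKM in passaged libraries. Both fell in all 4 comparisons, with log2 fold changes from -3.10 ± 0.77 to -4.88 ± 0.91. The Day 12 calls of SERPINF2 held in 12 of 18 alternative fits in P-DF and 13 of 18 in P-IWP2. Those of SERPIND1 held in 13 of 20 and 12 of 20. SERPIND1 lies within PI4KA on the opposite strand. Since the strand setting of the counting is not given in the sources used here, reads of the 2 genes cannot be told apart.

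SERPINC1, which encodes antithrombin, was at 1.04 and 0.32 FPKM in NP-IWP2 on Day 12 and 0.61 and 0.54 FPKM on Day 16. It was at 0 to 0.04 FPKM in the passaged libraries, and fell in P-DF on Day 12 and in both treatments on Day 16, where no read was counted. The Day 12 call held in 6 of 17 alternative fits. KNG1, the kininogen of the contact pathway, was at 0.05 to 0.23 FPKM in NP-IWP2 and 0 to 0.03 FPKM in passaged libraries, and fell in both treatments on Day 16 (adjusted p 0.0154 and 0.0136 by edgeR).

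VTN encodes vitronectin, a plasma and matrix protein that binds integrins and limits the terminal complement complex. It was at 25.33 and 20.40 FPKM in NP-IWP2 on Day 12 and 39.58 and 26.83 FPKM on Day 16. Passaged libraries were at 0.70 to 2.38 FPKM except replicate 5 of Day 12, which had 17.03 FPKM. VTN fell in P-DF on Day 12 (-3.71 ± 0.70) and Day 16 (-5.06 ± 0.75) and in P-IWP2 on Day 16 (-4.11 ± 0.70). Without replicate 5, so from the remaining library of that group only, the log2 fold change of VTN in P-IWP2 on Day 12 was -3.17. VTN overlaps SARM1 on the opposite strand and an unnamed protein-coding gene on its own strand.

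**Figure D4:**
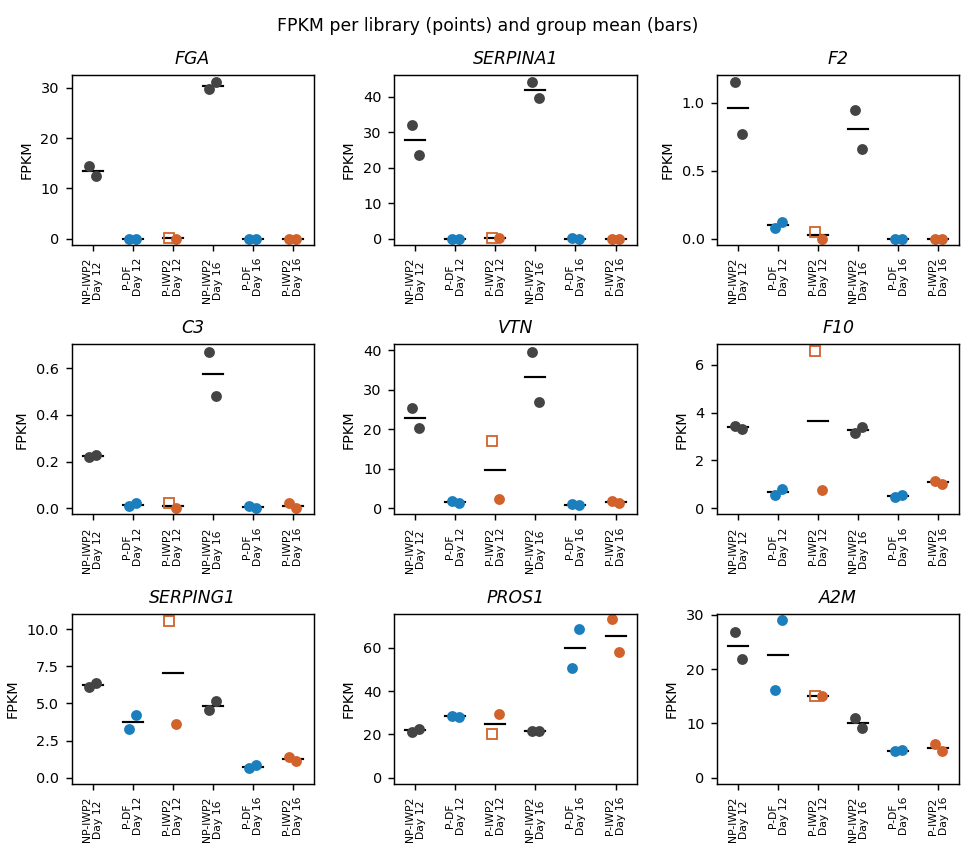
FPKM of 9 members in each library (points) with the group mean (bars), linear axes. The open square is P-IWP2 Day 12 replicate 5, which lies at 17.03 for VTN, 6.56 for F10 and 10.56 for SERPING1, while FGA, SERPINA1, F2 and C3 are at 0.05 or below there.

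The complement members covered the classical pathway, the central component and the terminal complex. C3, on which all pathways converge, was at 0.22 and 0.23 FPKM in NP-IWP2 on Day 12 and 0.67 and 0.48 FPKM on Day 16, and at 0 to 0.02 FPKM in the 8 passaged libraries. C3 was sorted into the third class, and fell in all 4 comparisons (adjusted p by edgeR from 0.00233 to 0.038). The Day 12 calls held in 9 of 18 alternative fits in P-DF and 8 of 18 in P-IWP2. C3 overlaps GPR108 on its own strand. CFI, the protease that inactivates C3b, was at 0.43 and 0.47 FPKM in NP-IWP2 on Day 16 and had 0, 0, 0 and 1 reads in the passaged libraries of that day. On Day 12 it was at 0.20 and 0.11 FPKM in NP-IWP2, 0.03 and 0.04 FPKM in P-DF and 0.02 FPKM in replicate 6 of P-IWP2, and at 1.76 FPKM in replicate 5. CFI overlaps an unnamed protein-coding gene on its own strand. It passed none of the 4 tests with 12 libraries. Without replicate 5 it fell in both treatments on Day 16 (adjusted p 8.5e-05 and 0.00013 by edgeR) and in P-DF on Day 12 (0.0356).

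C1R and C1S are the proteases of C1. C1R was at 0.53 and 0.46 FPKM on Day 12 and 0.87 and 0.80 FPKM on Day 16 in NP-IWP2. It was at 0.17 and 0.16 FPKM in P-DF and 0.45 and 0.10 FPKM in P-IWP2 on Day 12, and at 0.04 and 0.15 FPKM in P-DF and 0.27 and 0.31 FPKM in P-IWP2 on Day 16. It fell in P-DF on Day 16 (-2.83 ± 0.63, adjusted p = 0.018 by edgeR), and in all 4 comparisons without replicate 5. C1S was at 1.70 to 2.01 FPKM in NP-IWP2 and 0.84 to 2.28 FPKM in passaged libraries. It passed none of the 4 tests with 12 libraries, and without replicate 5 it fell in P-IWP2 on Day 12 (-0.95 ± 0.29). C1R overlaps C1RL on its own strand. C1S overlaps LPCAT3 on the opposite strand and an unnamed protein-coding gene on its own strand.

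SERPING1 encodes the C1 inhibitor, which also blocks kallikrein. On Day 12 it was at 6.14 and 6.36 FPKM in NP-IWP2, against 3.28 and 4.22 FPKM for P-DF and 10.56 and 3.61 FPKM for P-IWP2. On Day 16 it was at 4.58 and 5.14 FPKM in NP-IWP2, against 0.64 and 0.82 FPKM for P-DF and 1.38 and 1.10 FPKM for P-IWP2, without overlap. SERPING1 fell on Day 16 in P-DF (-2.49 ± 0.37, adjusted p = 0.0034 by edgeR) and in P-IWP2 (-1.69 ± 0.36, 0.0134), and without replicate 5 also on Day 12 in P-DF (-0.66 ± 0.14) and P-IWP2 (-0.70 ± 0.18).

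C5, the first terminal component, was at 0.52 to 1.05 FPKM in NP-IWP2 and 0.14 to 0.40 FPKM in passaged libraries. It fell on Day 12 in P-DF (-2.08 ± 0.33) and P-IWP2 (-1.87 ± 0.33), while on Day 16 the values were -0.56 ± 0.32 and -0.36 ± 0.32 and passed no test. Its Day 12 calls held in 14 of 18 alternative fits in P-DF and 11 of 18 in P-IWP2. C6, which joins C5b, was at 0.13 to 0.35 FPKM in NP-IWP2, 0.01 to 0.07 FPKM in 7 passaged libraries and 1.5 FPKM in replicate 5. It passed none of these tests with 12 libraries, and without replicate 5 it fell in P-DF on both days and in P-IWP2 on Day 16. C5 overlaps CNTRL on the opposite strand.

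PROS1 and A2M were the members with the highest levels in passaged cells. PROS1 encodes protein S, the cofactor of activated protein C and a ligand of the TAM receptors. On Day 12 it was at 21.11 and 22.58 FPKM in NP-IWP2, against 28.50 and 28.14 FPKM for P-DF and 20.16 and 29.28 FPKM for P-IWP2. On Day 16 it was at 21.35 and 21.70 FPKM in NP-IWP2, against 50.71 and 68.76 FPKM for P-DF and 73.11 and 57.88 FPKM for P-IWP2, and all 4 passaged libraries lay above both static ones. PROS1 rose on Day 16 in P-DF (1.71 ± 0.24, adjusted p = 0.00256 by edgeR) and P-IWP2 (1.88 ± 0.24, 0.00171). These calls held in all 20 alternatives, with log2 fold changes of 1.41 to 1.92 and 1.55 to 1.97. Of the 9 cardiomyocyte markers, 6 lay higher in all 4 passaged libraries of Day 16 than in both static ones, 1 (MYH6) lay lower and 2 overlapped. Their sum was 3440 and 2770 FPKM in NP-IWP2 and 7550 to 9370 FPKM in these passaged libraries, and their part in this result was not tested.

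A2M encodes alpha-2 macroglobulin, a broad protease inhibitor. On Day 12 it was at 26.85 and 21.82 FPKM in NP-IWP2, against 16.10 and 29.04 FPKM for P-DF and 15.07 and 15.07 FPKM for P-IWP2. On Day 16 it was at 10.93 and 9.13 FPKM in NP-IWP2, against 4.92 and 5.05 FPKM for P-DF and 6.13 and 4.85 FPKM for P-IWP2. Of the 10 endothelial markers, 9 lay lower in all 4 passaged libraries of that day than in both static ones. So did 12 of 12 hepatic, 9 of 10 stromal, 6 of 7 epicardial and 2 of 6 macrophage markers. Of all genes with a read on that day, 19.0% lay lower in this way by scaled counts. The part of these lists in the result was not tested. The A2M differences on Day 16 passed the test without replicate 5 alone (-0.79 ± 0.22 in P-DF and -0.60 ± 0.22 in P-IWP2). A2M overlaps A2M-AS1 on the opposite strand. PROS1 and A2M have pseudogenes with which reads could be shared, and this was not tested.

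The other 10 members were near the limit of detection. F9 had no read in any of the 12 libraries, which allows up to 0.202 CPM. The highest level in any library was 0.03 to 0.21 FPKM for C2, C4BPA, C8A, C8B, C9, CFB, KLKB1, PROC and MBL2. Of these, C2 passed the filter, with 4 to 15 reads per library, and was not called in any of the 4 comparisons. The other 9 did not pass the filter. In the fit without it, PROC was lower in P-DF on Day 16 (adjusted p = 0.0454 by edgeR, 11 reads against 0), and none of the others was called in the 4 comparisons. Counting intervals of the ratio of NP-IWP2 to passaged cells on Day 16 lay above 1 for KLKB1 in P-DF (1.91 to 522) and P-IWP2 (1.53 to 59.1), for C4BPA in P-IWP2 (1.17 to 48.3) and for CFB in P-DF (1.36 to 25), and they cover counting error only.

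To see whether IWP2 changed the members after passaging, P-IWP2 was compared with P-DF on Day 16. By edgeR with 12 libraries 0 members and 0% of all genes were called, with 2 members at an unadjusted p under 0.05, and DESeq2 called 0 members. That does not show that the treatments act alike. Without replicate 5 of Day 12, 3 members were higher in P-IWP2 (2.49% of all genes called, 1.64% higher), namely F10 (1.18 ± 0.27), SERPING1 (0.80 ± 0.17) and C1S (1.00 ± 0.22). Their adjusted p by edgeR was 0.0391, 0.0295 and 0.032.

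The change from Day 12 to Day 16 was tested within each treatment, and whether it differed between treatments was tested by the interaction term. In NP-IWP2, FGG (1.93 ± 0.32) and FGA (1.29 ± 0.17) rose and no member fell, with 1.98% of all genes called (0.877% higher). Without any 1 of the 4 NP-IWP2 libraries 0 members were called, and without either P-DF library of Day 16 1 was. Without replicate 5, 8 members rose and A2M fell (17.1% of all genes called, 9.23% higher and 7.91% lower), and the rises included FGB (0.67 ± 0.19), SERPINA1 (0.70 ± 0.17), VTN (0.66 ± 0.20) and C3 (1.5 ± 0.365). In P-DF, PROS1 rose (1.34 ± 0.24) and SERPING1 (-2.09 ± 0.37) and A2M (-1.92 ± 0.26) fell, with 13.6% of all genes called (6.79% higher and 6.81% lower). Without replicate 5, 2 members rose and 3 fell in P-DF, with 29.2% of all genes called (15.1% higher and 14.1% lower). Without P-DF replicate 4 of either day 1 was called.

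In P-IWP2, 3 members rose and 5 fell from Day 12 to Day 16, with 27.0% of all genes called (12.9% higher and 14.1% lower). PROS1 (1.79 ± 0.24), C1S (1.37 ± 0.28) and C5 (1.14 ± 0.33) rose, and SERPING1, A2M, VTN, F5 and CFI fell. VTN, F5 and CFI were high in replicate 5 of Day 12 and were not called without it. The calls were then 3 higher and 2 lower, with 23.7% of all genes called (12.4% higher and 11.3% lower). PROS1, C1S and C1R were the 3 that rose, and SERPING1 (-1.24 ± 0.18) and A2M (-1.16 ± 0.25) were the 2 that fell. Without any 1 of the 4 NP-IWP2 libraries or either P-DF library of Day 12 the calls were 5, without P-IWP2 replicates 5 and 6 of Day 16 in turn they were 4 and 1, and without replicate 6 of Day 12 they were 13.

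The interaction asks whether passaged and static cells differed by another amount on Day 16 than on Day 12. In P-DF 0 members were called by edgeR (0.482% of all genes), with 4 at an unadjusted p under 0.05, while DESeq2 called 2. In P-IWP2, PROS1 was called (1.69 ± 0.33, adjusted p = 0.042 by edgeR, 1.84% of all genes, 0.774% higher). Without any 1 library other than P-IWP2 replicates 5 and 6 of Day 12 that call was lost, and without replicate 6 11 members were called. Without replicate 5, PROS1 was called in P-DF (1.25 ± 0.20) and P-IWP2 (1.37 ± 0.22), and so was SERPING1 (-1.84 ± 0.22 and -0.99 ± 0.23), with 7.62% and 7.89% of all genes called (3.57% and 3.86% higher, 4.05% and 4.03% lower). C5 in P-DF and C1S in P-IWP2 were the other calls.

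Over both days, with the day as a second term, 1 member rose and 20 fell in P-DF, with 34.1% of all genes called (14.3% higher and 19.8% lower). In P-IWP2, 0 rose and 11 fell, with 2.57% of all genes called (0.425% higher and 2.14% lower). Without replicate 5, 1 rose and 21 fell in P-IWP2, with 24.8% of all genes called (10.3% higher and 14.5% lower). Leaving out replicate 6 in its place gave 9 calls, and leaving out NP-IWP2 replicate 1 of Day 16 gave 7. PROS1 was the member that rose in P-DF (1.07 ± 0.23, adjusted p = 0.00606 by edgeR).

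The other genes of the 2 cascades were taken from a list of 64, of which 39 passed the filter. On Day 16, 1 rose and 14 fell in P-DF, and 2 rose and 14 fell in P-IWP2. Of 23 tested genes of coagulation and fibrinolysis 10 fell and 0 rose in each treatment, and of 16 tested complement genes 4 fell in each, while 1 rose in P-DF and 2 in P-IWP2. Of all genes tested on Day 16, 9.86% were lower and 5.39% higher in P-DF, and 9.95% and 7.15% in P-IWP2. The calls were 27 in P-DF without either P-IWP2 library of Day 12. They fell to 9 without NP-IWP2 replicate 2, 7 without P-DF replicate 3 and 8 without P-DF replicate 4 of Day 16, and in P-IWP2 to 9 without either NP-IWP2 library and to 7 and 6 without P-IWP2 replicates 5 and 6 of Day 16. SERPINE2, an inhibitor of thrombin and plasminogen activators that many stromal cells make, was at 11.80 and 10.12 FPKM in NP-IWP2 and 0.13 to 0.20 FPKM in passaged libraries on Day 16. PLAT, the tissue plasminogen activator, was at 5.44 and 5.54 FPKM against 0.06 to 0.19 FPKM. The collectins COLEC11 (5.13 and 4.43 FPKM against 0.04 to 0.07) and COLEC10 (4.02 and 2.53 FPKM against 0.02 to 0.12), which start the lectin pathway, fell as well. F13A1, the catalytic subunit of factor XIII, had 13 and 10 reads in NP-IWP2 and 0 in the 4 passaged libraries.

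Of the 64, C5AR1 and CD59 were called higher with no overlap between the passaged and static libraries of Day 16. C5AR1, the receptor of C5a, was at 0.07 and 0.08 FPKM in NP-IWP2 and 0.28 to 0.42 FPKM in passaged libraries, and rose in both treatments (2.37 ± 0.60 and 2.44 ± 0.60). CD59, a membrane inhibitor of the terminal complex, was at 11.83 and 10.96 FPKM against 14.08 to 17.06 FPKM, and rose in P-IWP2 (0.79 ± 0.20, adjusted p = 0.0297 by edgeR). PLAT had 3.52 FPKM and SERPINE2 5.08 FPKM in replicate 5 of Day 12, against 0.20 to 0.28 and 0.75 to 1.17 FPKM in the 3 other passaged libraries of that day.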

How the data were processed

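RNA-seq libraries were made from H1 cells. Per the labels and the study's methods, reads were trimmed with Cutadapt 1.9.1, aligned to hg38 with HISAT2 2.0.1 and counted per gene with HTSeq 0.6.1. The library kits named there belong to a long-read platform, while these tools are for short reads, and the strand setting and annotation release are not given in the sources used here. The authors deposited read counts per gene without normalization and FPKM, which equal the count divided by exon length and library total within 0.0051 for 100.000% of values. The members and lists were chosen with earlier results of these data known.

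Counts were tested with edgeR 4.0.16 in R 4.3.3 (TMM, filterByExpr, quasi-likelihood test, Benjamini-Hochberg over 19505 genes, threshold 0.05). All 12 libraries entered 1 model of 6 groups, and the comparisons over both days used 8 libraries with the day as a second term. SE is the absolute log2 fold change divided by the square root of F. The fits were tested on simulated data, in which the share of false calls varied between draws and lay above the threshold in several of them. The criterion, a mean over the draws, was chosen after the first draw had exceeded the limit set for a single one. Calls just past the threshold are therefore the least certain. Alternatives were DESeq2 1.42.0, limma 3.58.1 on log2(FPKM + 1) and log2(FPKM + 0.1), other scaling, no filter, models of the groups compared, a replicate block and leaving out each library. Leaving out a library left 1 in its group, whose spread then came from the other groups. Values per library are given for members that passed the filter and were called in a comparison of passaged with static cells on 1 day, with or without P-IWP2 Day 12 replicate 5, or were among the 8 highest in mean FPKM. Of the other pathway genes, at most 5 rises and 5 falls called on Day 16 without overlap are named. Limits from 3 counts and intervals cover counting error only. Promoters are from RefSeq (GRCh38.p14). Overlaps of genes were taken from GENCODE v44, in which 32 of the 35 members had the start and end of the deposited table.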

Additional observations from a re-analysis of the deposited data

Results flagged for a closer look

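For 4 genes the difference between passaged and static cells on Day 16 was not the same size as on Day 12, by the interaction term of edgeR with all 12 libraries. PROS1 had an interaction of 1.69 in P-IWP2, past the threshold in 8 of 21 alternatives. F3, which encodes tissue factor, had an interaction of -2.31 in P-DF. It was at 9.39 and 8.87 FPKM in NP-IWP2 and 4.52 and 4.43 FPKM in P-DF on Day 12, and at 15.91 and 12.37 against 1.51 and 1.04 FPKM on Day 16. COLEC11 and SERPINE2 had interactions of -4.85 and -4.45 in P-IWP2. Both were higher in replicate 5 than in replicate 6 of P-IWP2 on Day 12, at 0.64 against 0.26 FPKM and 5.08 against 1.17 FPKM. A fit without replicate 5 was made, but its values for these 2 genes are not given here.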

How the results depend on the processing

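Depth limits the members with few reads, since 3 counts over a group set the bound of a fold change. Total counts in place of TMM moved the median log2 fold change of all genes on Day 16 to -0.248 in P-DF and -0.308 in P-IWP2. Members called in every alternative numbered 5 of 13 (P-DF) and 0 of 10 (P-IWP2) on Day 12, 8 of 17 and 8 of 15 on Day 16, and 19 of 21 and 7 of 11 over both days.

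The number of members called moved by more than 1.5 times under these alternatives. The filtered limma fits kept only genes with a mean FPKM of at least 1 and so tested fewer members than edgeR. F2, PLG and C3, with means of 0.315, 0.312 and 0.14 FPKM over all libraries, were not among them. Counts from filtered limma and from edgeR thus cover different sets of members. Other causes of the moves were not tested. The share of all genes called is not given beside these counts or those with 1 library left out. They therefore do not tell a change in the members from one over the whole table. With limma on log2(FPKM + 1) and log2(FPKM + 0.1), P-DF gave 6 and 5 on Day 12, 9 and 9 on Day 16 and 11 and 11 over both days, and P-IWP2 gave 5 and 4, 8 and 9, and 7 and 7. For time in NP-IWP2, log2(FPKM + 0.1) gave 1, and for time in P-IWP2 both gave 4. For the interactions, log2(FPKM + 1) gave 2 in P-DF and 3 in P-IWP2. Limma without its filter gave 4 for time in NP-IWP2, 3 for time in P-IWP2, and 2 for each interaction. EdgeR without the filter gave 16 for P-IWP2 on Day 12, 17 for P-IWP2 over both days, 3 for P-IWP2 against P-DF, 8 and 5 for time in NP-IWP2 and P-DF, and 5 and 9 for the interactions. DESeq2 gave 2 and 6 for the interactions. Models of the groups compared gave 0 for P-IWP2 on Day 12, for time in P-IWP2 and for the P-IWP2 interaction, 10 for time in NP-IWP2 and 5 for the P-DF interaction. The other pathway genes called in P-DF on Day 16 were 26 without the filter and 29 in the model of the groups compared.

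Leaving out 1 library in turn gave 5 to 19 (P-DF) and 4 to 16 (P-IWP2) members on Day 12, 9 to 21 and 8 to 23 on Day 16, and 20 to 23 and 7 to 22 over both days. The ranges were 0 to 3 for P-IWP2 against P-DF, 0 to 9, 1 to 5 and 1 to 13 for time in NP-IWP2, P-DF and P-IWP2, and 0 to 4 and 0 to 11 for the interactions. For other pathway genes they were 7 to 27 in P-DF and 6 to 23 in P-IWP2 on Day 16. Without replicate 6 of P-IWP2 on Day 12, in place of replicate 5, the members called were 19 and 21 in P-DF and 14 and 22 in P-IWP2 on Day 12 and Day 16, so these counts rose with either left out. Over both days the 2 libraries differed, with 22 members called in P-IWP2 without replicate 5 and 9 without replicate 6.

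The summed level of the third class in P-DF on Day 12 turned in direction, with a log2 difference of -0.04 from summed CPM and -0.10 from summed TPM. Replicate numbers are shared by the days of a treatment, and deviations of equal numbers correlated at 0.075, -0.0015 and -0.031 in NP-IWP2, P-DF and P-IWP2. With the replicate block, 1 member was called for time in NP-IWP2 and 0 for the P-IWP2 interaction, and no other count of members moved by more than 1.5 times.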
